A study of Rattus norvegicus with 18 samples.

Results

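Translation initiation and elongation factors are the proteins that bring a ribosome to a messenger RNA, place it on the start codon and carry it along the coding sequence. The genes described here are those whose probe sets carry a single gene symbol of the Eif1 to Eif6 or the Eef1 and Eef2 series in the platform annotation, with the Eif2ak kinases left out. They are 56 of the 14217 genes that have such a probe set on the array (0.394%), and they have 88 probe sets. Each gene is given by 1 probe set, the one with the highest mean signal, and Eif3c by both of its probe sets. Of the 56 genes, 55 passed the filter that leaves out the 40% of probe sets with the lowest mean. Eef1akmt4, named as a lysine methyltransferase of elongation factor 1A, did not, and its signals lay between 6.80 and 14.9. A further 5 probe sets that carry a member's symbol together with another symbol were left out.

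The rats were male Sprague-Dawley animals, all implanted with electrodes to record sleep, and RNA came from the right hippocampal formation and the right neocortex. Paradoxical (rapid eye movement) sleep was withheld on flowerpots, small platforms over water from which a rat slips when its muscles go slack. Recovery rats had 72 h of deprivation and then 6 h in which they could sleep, deprived rats had 78 h of deprivation, and control rats stayed in their home cages. These recovery times follow the sample labels, while the treatment description can also be read as 6 h of sleep after 78 h of deprivation, so whether recovery and deprived rats had equal deprivation is uncertain. Each state had 12 rats in 2 sets of 6, and equal masses of RNA were pooled within a set, so the 6 groups (recovery, deprived and control in the hippocampal formation, and recovery, deprived and control in the neocortex) had n = 2 pools each. The 12 pools were measured on 18 arrays, because set 1 was pooled and hybridised in duplicate and those arrays were averaged. The neocortical and the hippocampal pool of a set came from the same 6 rats, called an animal pool here. Pooling hides the differences between single rats, and no control rat lived on a platform, so the stay on the platform and the loss of sleep cannot be told apart. In whole tissue, fewer cells of a type and less RNA per cell cannot be told apart either. A signal is the scaled linear intensity of a probe set, and a difference is on the log2 scale, where 1 is a doubling. Signals of different probe sets are not comparable with one another, and no detection calls were used, so a low signal cannot be set against background.

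As background, initiation starts when eIF2, loaded with GTP, brings the initiator transfer RNA to the small ribosomal subunit, and eIF2B reloads eIF2 after each round. Phosphorylation of the alpha subunit of eIF2 blocks eIF2B and lowers initiation, a step shared by several stress pathways. eIF4E binds the cap of the messenger RNA, eIF4G is the scaffold, eIF4A is the helicase, eIF3 joins this complex to the ribosome, and the 4E-binding proteins hold eIF4E back until mTORC1 phosphorylates them. In elongation, eEF1A delivers aminoacyl transfer RNA, the eEF1B complex reloads eEF1A, eEF2 moves the ribosome by a codon, and eEF2 kinase stops eEF2. In neurons these steps are also controlled by phosphorylation, which an array of messenger RNA does not measure.

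The labelled structures were checked against marker genes. Of 7 markers of hippocampal neurons with a probe set 5 passed the filter, and these 5 were called higher in the hippocampal formation, while 5 of 7 markers of neocortical neurons were called lower there. All 6 markers of striatal neurons were also lower in the hippocampal formation, with a summed signal of 381 to 543 in hippocampal pools, against 1280 to 1537 in neocortical pools. Of other cell types, 3 of 4 endothelial markers were called lower, and 2 of 5 astrocyte, 1 of 6 general neuronal and 1 of 4 oligodendrocyte markers were called higher in the hippocampal formation. The part of these cell types in the differences of members between structures was not tested. The 3 hippocampal pools of set 2 stood apart: on the first principal component (48.3% of the variance) they lay between 0.300 and 10.01, while those of set 1 lay between 37.9 and 46.6 and the neocortical pools between -26.3 and -20.7. The ratio of 3' to 5' signal of beta-actin is a sign of RNA and labelling quality. It lay between 2.33 and 2.52 in hippocampal pools and between 2.35 and 3.18 in neocortical pools, highest in a neocortical recovery pool. It was higher in the neocortex in each animal pool except deprived set 2. For Gapdh the same ratio was higher in the neocortex in recovery set 2 and deprived set 2, and lower in the other animal pools. The part of RNA quality in the differences between structures was not tested.

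In the hippocampal formation 5 of the 55 genes were called higher and 0 lower than in the neocortex (limma, Benjamini-Hochberg adjusted p under 0.05), a share below that of all probe sets tested, of which 19.9% were called (9.40% higher and 10.5% lower). The median difference of the 55 genes was 0.078, against -0.015 for all kept probe sets, and 38 genes lay above 0 while 47.2% of all probe sets did. The 5 genes were Eif4e3, Eif4a1, Eef1d, Eif1b and Eif3i. In all 6 animal pools 13 genes were higher in the hippocampal formation (14.3% of all probe sets) and 2, Eif4g3 and Eif1ad, were lower (14.8%). The median difference between the structures was 0.10 in set 1 and 0.049 in set 2.

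**Figure D1:**
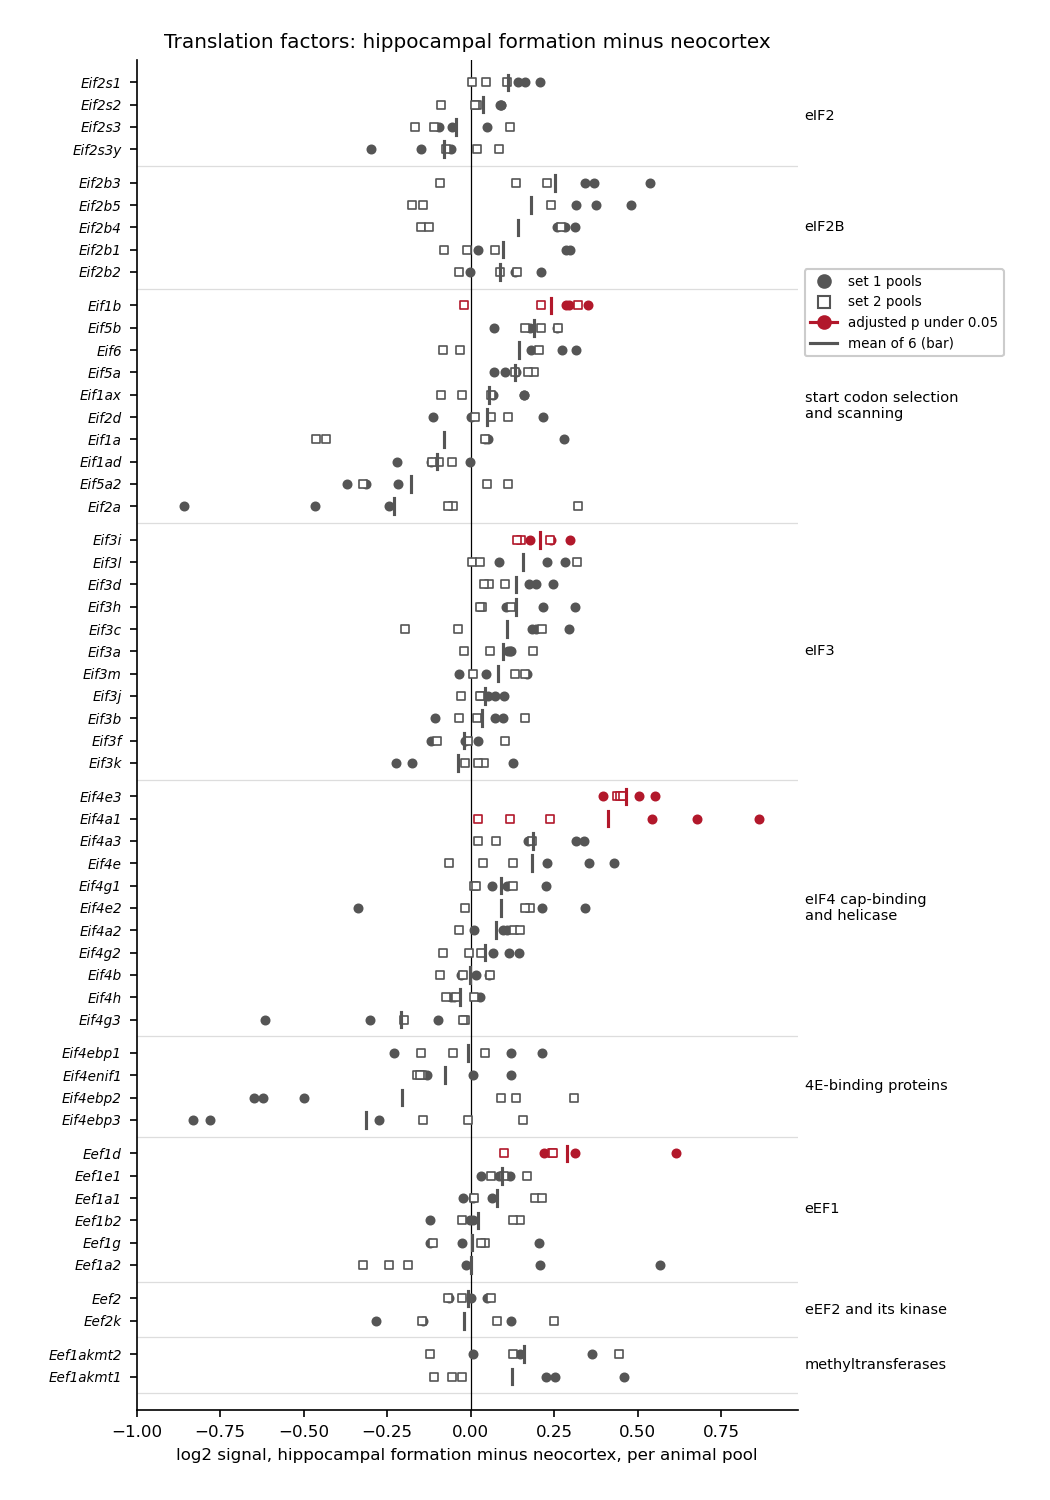
Log2 difference of signal between hippocampal formation and neocortex in each of the 6 animal pools (filled circles set 1, open squares set 2), for the 55 genes by role; the bar is the mean and red marks an adjusted p under 0.05. Eif4e3 is tight around its mean of 0.47, while Eif4a1, Eif4ebp2, Eif4ebp3 and Eif2a have set 1 pools far from their set 2 pools.

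Eif4e3 encodes a member of the eIF4E family of cap-binding proteins. Its signals were 101 and 97.1 in recovery, 98.2 and 101 in deprived and 88.2 and 94.6 in control hippocampal pools, against 69.0 and 71.7 in recovery, 69.3 and 74.0 in deprived and 67.0 and 69.0 in control neocortical pools. Every hippocampal pool was above every neocortical pool, and the sleep states lay close together within a structure. The difference was 0.47 ± 0.054 (SD, n = 6 animal pools), a 1.38-fold higher signal (adjusted p = 0.00447 by limma), and was 0.48 in set 1 and 0.45 in set 2. A second probe set of Eif4e3 gave 0.47 (adjusted p = 0.0336 by limma). Structure held 94.3% of the variance of Eif4e3 over the 12 pools.

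Eif4a1 encodes a DEAD-box helicase that unwinds the 5' leader of the messenger RNA. It had signals of 973 and 849 in recovery, 868 and 808 in deprived and 979 and 850.2 in control hippocampal pools, against 535 and 782 in recovery, 595 and 795 in deprived and 613 and 721 in control neocortical pools. The structures did not overlap, but the neocortical pools of set 1 were lower than those of set 2 in each state. The difference of 0.41 ± 0.33 (SD, n = 6 animal pools) had an adjusted p of 0.0496 by limma and was 0.69 in set 1 and 0.13 in set 2. Eif4a2, the paralogue that neurons express strongly, had lowest, median and highest signals of 2944, 3163 and 3268 in hippocampal pools, against 2895, 2949.8 and 3175 in neocortical pools, and its difference of 0.077 was not called (adjusted p = 0.236 by limma). The 2 genes have similar coding sequences, and probes shared between them were not looked for.

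Eef1d encodes the delta subunit of the exchange complex that reloads eEF1A with GTP. Signals were 361 and 316 in recovery, 414 and 309 in deprived and 396 and 282 in control hippocampal pools, against 310.4 and 267 in recovery, 270.5 and 260.5 in deprived and 319 and 263 in control neocortical pools. Within each animal pool the hippocampal signal was the higher, although hippocampal pools of set 2 overlapped with neocortical pools of set 1. The difference was 0.29 ± 0.17 (SD, n = 6 animal pools; adjusted p = 0.0259 by limma), with 0.38 in set 1 and 0.20 in set 2. Eif1b encodes a relative of eIF1, the factor that keeps the scanning ribosome open until it meets a start codon. It gave 504 and 496 in recovery, 529.5 and 518 in deprived and 536 and 456 in control hippocampal pools, against 413 and 428 in recovery, 432 and 415 in deprived and 420.0 and 462 in control neocortical pools. One animal pool, control set 2, was marginally lower in the hippocampal formation and the other 5 were higher. The mean difference was 0.24 ± 0.14 (SD, n = 6 animal pools; adjusted p = 0.0357 by limma). Eif3i encodes a WD-repeat subunit of eIF3. Its signals were 406 and 372 in recovery, 405 and 382 in deprived and 367 and 339 in control hippocampal pools, against 330.1 and 335 in recovery, 343 and 324 in deprived and 325 and 308 in control neocortical pools. Each animal pool was higher in the hippocampal formation, by 0.21 ± 0.062 (SD, n = 6 animal pools; adjusted p = 0.0315 by limma).

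**Figure D2:**
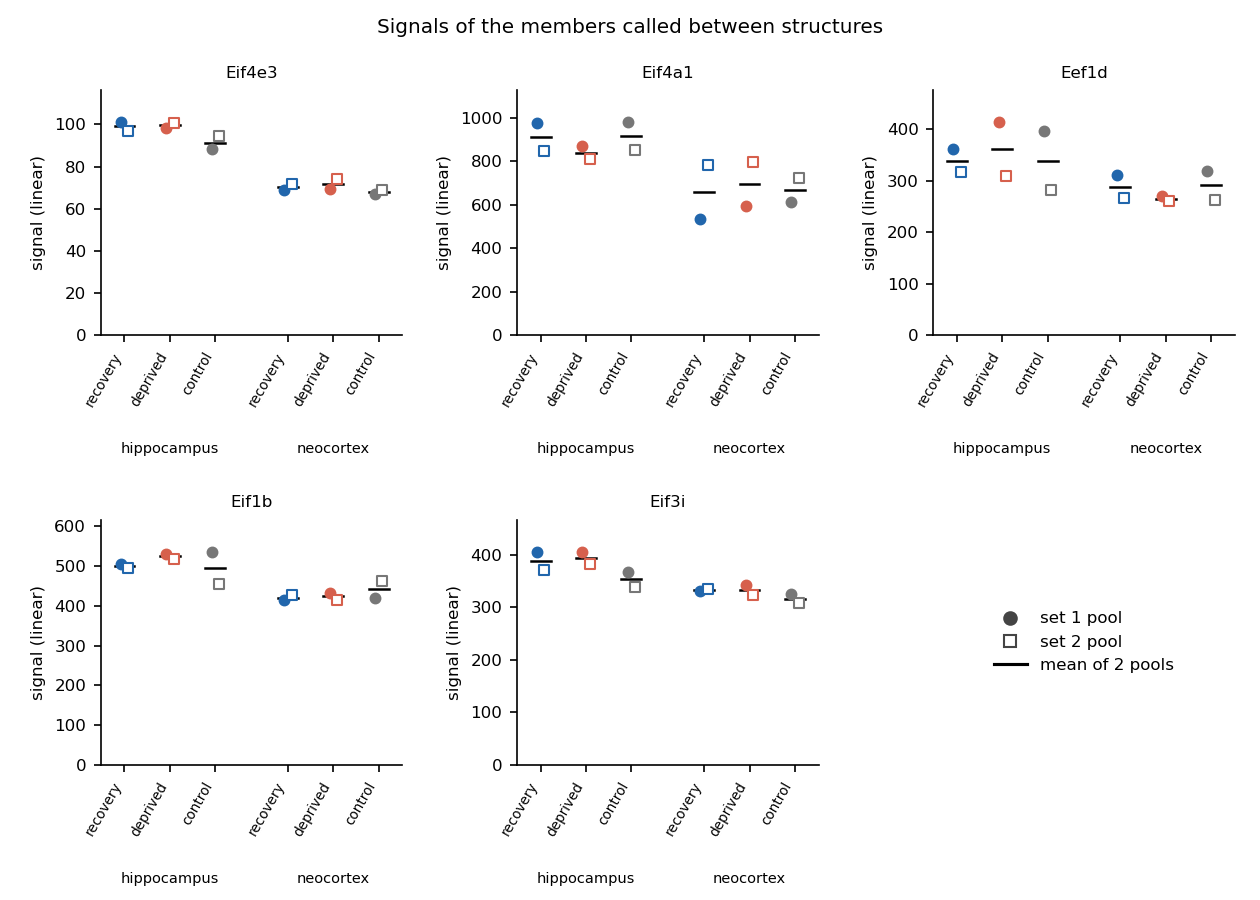
Linear signal of the 5 genes called between structures, by pool (filled circles set 1, open squares set 2, bar the mean of 2 pools), with recovery, deprived and control from left to right in each structure. The Eif4e3 pools of both structures are separated in every state, and the Eif4a1 pools of the neocortex are split by set.

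Of the 5 genes, Eif4e3 was called in each of 14 alternative settings, while leaving out any 1 animal pool of set 1 left 1 call in all. The share of all probe sets called without such a pool was not computed. When the set of rats was fitted as a block, which takes the difference between the sets out of the spread, 19 of the 55 genes were called, 14 higher and 5 lower in the hippocampal formation, against 43.0% of all probe sets (20.3% higher and 22.7% lower). The 5 lower genes were Eif4ebp3, Eif4ebp2, Eif2a, Eif4g3 and Eif5a2. In 3 of these the hippocampal signal was the lower one in set 1 and not in set 2. Eif4ebp2 was -0.59 in set 1 and 0.18 in set 2, Eif2a was -0.52 in set 1 and 0.067 in set 2, and Eif4ebp3 was -0.63 in set 1 and 0.0027 in set 2. For genes whose sets differ in this way, the mean of both sets is not the difference seen in either. The 9 further higher genes included Eif4e (0.18, adjusted p = 0.00175 with the block and 0.113 without, by limma), the main cap-binding protein, which was 0.34 in set 1 and 0.033 in set 2. A second, dimmer probe set of Eif4e did not show this, with a mean difference of 0.00049 and 3 of 6 animal pools above 0.

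The 5 subunits of eIF2B were above 0 in the hippocampal formation, none called, with differences from 0.089 (Eif2b2) to 0.25 (Eif2b3), and their median was 0.28 in set 1 and -0.00075 in set 2. Eif2b5, the catalytic epsilon subunit, had lowest, median and highest signals of 59.0, 75.0 and 83.7 in hippocampal pools, against 59.0, 62.1 and 66.6 in neocortical pools, which overlap. Of the 4 eIF2 genes 2 were above 0, and Eif2s1, the alpha subunit that the stress kinases phosphorylate, was 0.11 (adjusted p = 0.188 by limma), higher in each of the 6 animal pools. Of the 11 eIF3 subunits 9 were above 0, with a median of 0.096, and 1, Eif3i, was called. Of the 11 genes of the eIF4 group 8 were above 0 and 2 were called, and Eif4g1, the main scaffold, was 0.092. The 4 genes of the 4E-binding group lay below 0, none called, with a median of -0.30 in set 1 and -0.025 in set 2. All 6 eEF1 genes were above 0, from 0.0013 (Eef1a2) to 0.29 (Eef1d), and 1 was called. Eef2, the translocase, and Eef2k, its kinase, were -0.0076 and -0.020, neither called. A last group of 10 genes was labelled start codon selection and scanning, although some of them, such as Eif5b, act at other steps. It held Eif1a, Eif1ad, Eif1ax, Eif1b, Eif2a, Eif2d, Eif5a, Eif5a2, Eif5b and Eif6. Of these genes 6 were above 0 and 1, Eif1b, was called.

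Eef1a1 and Eef1a2, the forms of eEF1A of most tissues and of neurons and muscle, differed in how they behaved between the sets. Eef1a1 had lowest, median and highest signals of 3240.3, 3458 and 3643 in hippocampal pools, against 2856, 3313 and 3626 in neocortical pools, with differences of 0.016 in set 1 and 0.14 in set 2. Its probe set name marks probes shared with other transcripts. A second probe set of Eef1a1, without that mark, had a mean difference of 0.10 and did not separate the sets. Its set 1 differences were 0.10 in recovery, 0.070 in deprived and 0.16 in control. They lay within the range of its set 2 differences, the lowest of which was -0.070 in recovery. Eef1a2 had 989, 1105 and 1530.3, against 1033, 1147 and 1259, and its difference was 0.25 in set 1 and -0.25 in set 2, so that its mean of 0.0013 stands for neither.

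Several genes gave another picture through another probe set. A second probe set of Eif3a, the largest scaffold subunit of eIF3, was 0.75 higher in the hippocampal formation (adjusted p = 0.00665 by limma), with lowest, median and highest signals of 29.8, 43.8 and 60.8 in hippocampal pools, against 19.2, 23.9 and 32.3 in neocortical pools. The brighter probe set of Eif3a gave 0.10 (adjusted p = 0.211 by limma). The other 2 probe sets of Eif5b, the factor that joins the large subunit, were both called higher (0.33 and 0.30), and the brightest was 0.19 (adjusted p = 0.0625 by limma). For Eif4g2, a scaffold used in cap-independent initiation, 1 of the 3 probe sets was lower in the hippocampal formation (-0.20) and the other 2 were 0.044 and 0.078. Eif5a2, called lower with the block, was -0.18 by its brighter probe set and 0.086 by the other. Eif1a was -0.080 by its brightest probe set and 0.41 by another, which was higher in all 6 animal pools, while the rest gave -0.056 and 0.087. These probe sets were singled out after their values were seen, and which transcripts each measures was not tested.

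Promoter sequences are shown for the genes called between structures and for Eif3c, from RefSeq (build GRCr8). Of the 56 genes, 51 had an entry, and Eif4e3, Eef1d, Eif3h, Eif4b and Eif4ebp1 are named only. Some genes have several promoter windows of 300 bases (250 before an annotated start and 50 after), and a gene was counted if any of its windows matched. Of the 51 genes 17 (33.3%) held the letters CCGGAAG or its reverse complement CTTCCGG, the core bound by ETS factors, against 9.63% of all 27457 genes with a window. The letters TATAAA or TTTATA, the TATA box, were in 5.88% against 15.3%, and TGACGTCA, the cAMP response element, which is its own reverse complement, in 1.96% against 2.0%. The median GC content of the 100 bases before the start was 62.5% in members, against 54.0% in all genes, and the part of base composition in these shares was not tested. The 100 bases before the start of the 3 called genes with an entry, and of Eif3c, follow in lower case, 5' to 3' on the gene's strand, with the ETS core in capitals where it occurs.

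Eif4a1 (chr10:54888603-54888702, minus strand): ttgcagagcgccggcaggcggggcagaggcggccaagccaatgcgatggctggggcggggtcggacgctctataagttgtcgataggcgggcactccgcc
Eif1b (chr8:129081058-129081157, plus strand): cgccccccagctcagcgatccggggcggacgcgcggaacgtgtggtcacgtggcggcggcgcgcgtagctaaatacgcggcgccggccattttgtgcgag
Eif3i (chr5:147226911-147227010, minus strand): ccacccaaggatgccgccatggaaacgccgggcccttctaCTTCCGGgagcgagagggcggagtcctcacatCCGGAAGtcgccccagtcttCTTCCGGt
Eif3c (chr1:190583068-190583167, minus strand): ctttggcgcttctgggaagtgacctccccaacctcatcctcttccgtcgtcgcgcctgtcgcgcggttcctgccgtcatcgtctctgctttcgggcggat

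The Eif3i stretch held the ETS core 3 times, 1 on the forward and 2 on the reverse strand, and the other 3 stretches held none. The Eif1b promoter had the core elsewhere in its window.

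The series asks which transcripts change with paradoxical sleep loss and with the recovery of sleep, and no translation factor was called for either. Of the 55 genes 0 were called in each of the 6 comparisons of 2 states (limma, adjusted p), where 0% of all probe sets were called. At an unadjusted p under 0.05 the counts for recovery against control, recovery against deprived and deprived against control were 0, 0 and 0 genes in the hippocampal formation (1.51%, 1.62% and 1.10% of all probe sets) and 0, 1 and 0 genes in the neocortex (1.12%, 0.907% and 1.11%). With the set as a block they were 1, 3 and 3 in the hippocampal formation and 1, 1 and 2 in the neocortex, against 7.32%, 7.16%, 5.94%, 5.79%, 4.56% and 5.74% of all probe sets in the same order. The block gave 0 called genes as well, against 0% of all probe sets in the hippocampal formation and 0%, 0.00537% and 0.0107% in the neocortex. Genes above 0 numbered 25, 23 and 26 of 55 in the hippocampal formation (51.9%, 49.8% and 51.2% of all probe sets) and 24, 30 and 24 in the neocortex (50.2%, 48.1% and 52.5%), in the same order. Comparisons within a structure share pools and are not independent. The medians of the 55 differences were -0.0059, -0.019 and -0.0060 in the hippocampal formation and -0.011, 0.0032 and -0.030 in the neocortex, and those of all kept probe sets lay between -0.0061 and 0.0087. The median size of a difference between states in the same set was 0.074 in members, below the 0.11 between 2 arrays of 1 pool. These are not like measures, since each set 1 pool is a mean of 2 arrays and the 0.11 is between single arrays.

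**Figure D3:**
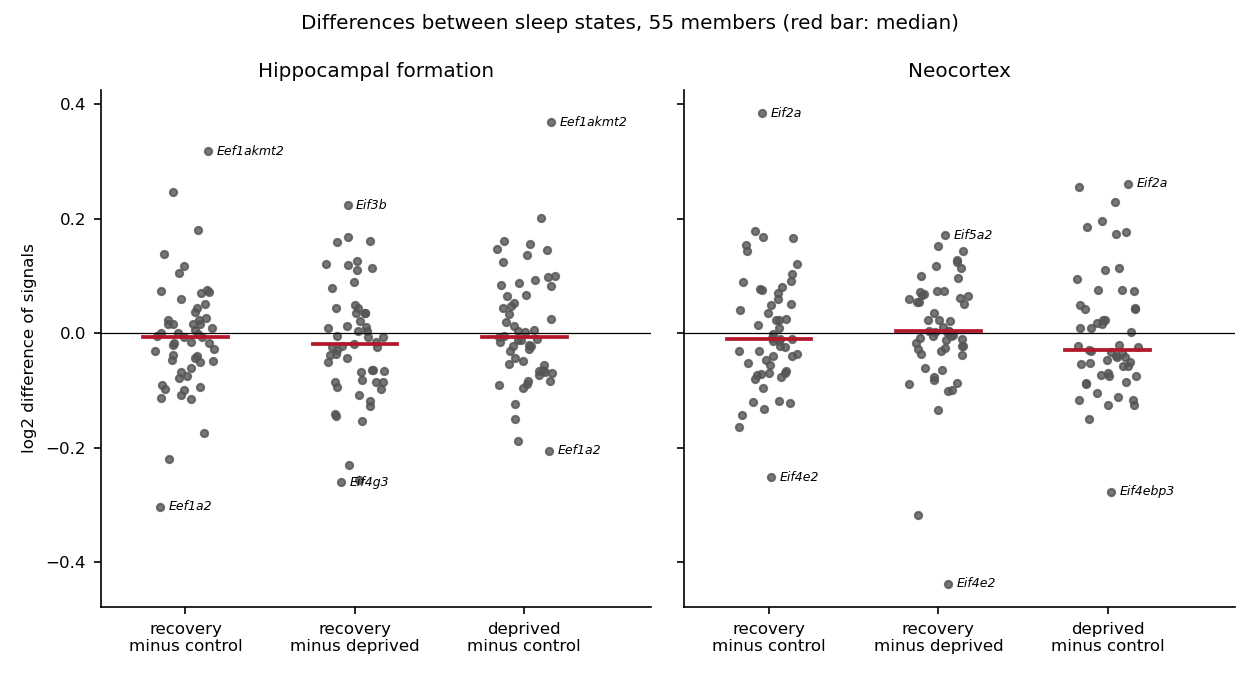
Log2 difference between sleep states for the 55 genes in the hippocampal formation (left) and the neocortex (right); each point is a gene, the red bar the median, and the highest and the lowest gene of each comparison are named. The medians lie between -0.030 and 0.0032, and Eif4e2 in the neocortex, recovery minus deprived, is the lowest point at -0.44.

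Some genes had pools of 2 states that did not overlap. In the hippocampal formation 3 were higher and 4 lower in recovery than in control (10% and 9.87% of all probe sets), 5 higher and 6 lower in recovery than in deprived (11.8% and 11.4%), and 3 higher and 1 lower in deprived than in control (10% and 9.33%). In the neocortex 8 were higher and 9 lower in recovery than in control (11.9% and 12.1%), 8 higher and 4 lower in recovery than in deprived (10.9% and 12.5%), and 7 higher and 9 lower in deprived than in control (13.1% and 11.4%). As shares of 55, the 6 hippocampal counts lie below the shares of all probe sets, and the neocortical counts lie on both sides of them.

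Among the factors that bind the cap, Eif4e2 encodes 4EHP, an eIF4E relative that represses the messages it binds. Its neocortical signals were 75.2 and 76.3 in recovery, 113 and 93.6 in deprived and 82.4 and 98.7 in control pools. Both recovery pools were below all pools of the other states, and the control pools lay on both sides of the lower deprived pool. The difference between recovery and deprived was -0.44 (SE 0.15, unadjusted p = 0.0144, adjusted p = 1.0 by limma), with -0.58 in set 1 and -0.29 in set 2, and that between recovery and control was -0.25. Hippocampal signals of Eif4e2 were 87.3 and 86.3 in recovery, 89.1 and 105 in deprived and 105 and 97.6 in control pools, and both recovery pools were again the lowest, with a difference of -0.22 against control. The 2 arrays of the set 1 recovery pool of the hippocampal formation differed by 0.49, more than this difference. State, taken within each structure, held 66.0% of the variance of Eif4e2 over the 12 pools. Eif4e2 was 1 of 4 genes, with Eif2d, Eif4h and Eif3j, for which state held the largest share. Eif4e had 885 and 751 in recovery, 769.6 and 693 in deprived and 842 and 716 in control hippocampal pools and 658 and 687 in recovery, 657 and 724 in deprived and 659 and 698 in control neocortical pools. Its differences between states lay between -0.089 (hippocampal formation, deprived minus control) and 0.16 (hippocampal formation, recovery minus deprived). Eif4g1, the scaffold, was -0.10 in recovery against control in the hippocampal formation and -0.12 in the neocortex, with set 1 and set 2 of opposite sign in both. Eif4a1 and Eif4a2 stayed within -0.12 and 0.12 in the 6 comparisons.

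Of the 4E-binding proteins, Eif4ebp1 had 78.8 and 69.2 in recovery, 80.4 and 63.7 in deprived and 65.8 and 58.9 in control hippocampal pools. The recovery pools were above both control pools, by 0.25 (SE 0.17, adjusted p = 1.0 by limma), and the deprived pools overlapped with them. In the neocortex Eif4ebp1 had 67.9 and 67.1 in recovery, 74.0 and 70.6 in deprived and 77.1 and 61.1 in control pools, with the control pools at both ends, and recovery minus control was -0.024. Eif4ebp2, the form most abundant in brain, gave 167 and 169 in recovery, 161 and 189.8 in deprived and 141 and 158 in control neocortical pools. Its recovery pools and its deprived pools were above the control pools, by 0.17 and 0.23 (adjusted p = 1.0 each by limma). Eif4ebp3 in the neocortex had differences of -0.13 in recovery and -0.28 in deprived against control pools, without overlap and without a call. The 2 arrays of the set 1 control pool of the neocortex differed by 0.40 for Eif4ebp2 and 0.42 for Eif4ebp3, more than these differences from control.

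Eif2s1 gave 452 and 325 in recovery, 422 and 325 in deprived and 419 and 332 in control hippocampal pools and 404 and 315 in recovery, 366 and 324 in deprived and 380.1 and 308 in control neocortical pools, where the sets stood apart and the states did not. Its largest difference between states was 0.059 (neocortex, recovery minus control). Eif2b5 lay between -0.14 (hippocampal formation, recovery minus deprived) and 0.093 (hippocampal formation, deprived minus control). Eif2b3, the gamma subunit, was lower in recovery than in control neocortex without overlap (96.1 and 97.8 in recovery, against 112 and 105 in control pools), a difference of -0.16 that was not called. In the hippocampal formation Eif2b3 was -0.19 in deprived against control and 0.17 in recovery against deprived. Eif2a, an initiation factor of its own and not a subunit of eIF2, gave 184 and 171 in recovery, 146 and 182 in deprived and 119.6 and 154 in control neocortical pools. It had the largest positive difference in the neocortex, 0.38 in recovery against control (SE 0.34, adjusted p = 1.0 by limma), with 0.62 in set 1 and 0.15 in set 2. In the hippocampal formation Eif2a had 101 and 165 in recovery, 106 and 174 in deprived and 101 and 193 in control pools, where set 2 was far above set 1 in each state.

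The elongation factors gave the largest state difference of the hippocampal formation with a negative sign. Eef1a2 had 1114 and 989 in recovery, 1254 and 1007 in deprived and 1530.3 and 1096 in control hippocampal pools. Set 1 control was the highest pool, the set 2 pools lay close together, and the groups overlapped. Recovery minus control was -0.30 (SE 0.18, adjusted p = 1.0, and 0.425 with the set as a block, by limma), with -0.46 in set 1 and -0.15 in set 2, and deprived minus control was -0.21. In the neocortex Eef1a2 stayed within -0.028 and 0.043. Eef2 had 1153 and 1146 in recovery, 1273 and 1184 in deprived and 1322 and 1173 in control hippocampal pools, with both recovery pools below the other states and differences of -0.12 against control and -0.095 against deprived, neither called. Neocortical pools of Eef2 had 1205 and 1203 in recovery, 1273 and 1134 in deprived and 1276 and 1194 in control, and recovery minus control was -0.037. Eef2k, the kinase that stops eEF2, had low signals, 28.6 and 36.4 in recovery, 29.8 and 42.7 in deprived and 25.2 and 40.4 in control in hippocampal and 31.5 and 40.3 in recovery, 27.4 and 40.4 in deprived and 30.6 and 34.0 in control in neocortical pools, and its states overlapped in both structures. Eef1a1 lay between -0.031 (hippocampal formation, recovery minus control) and 0.041 (neocortex, recovery minus control). Eef1akmt2, named as a methyltransferase of eEF1A, had the largest positive difference of the hippocampal formation, 0.37 in deprived and 0.32 in recovery against control, with signals of 54.6 and 80.9 in recovery, 52.8 and 89.7 in deprived and 47.6 and 59.7 in control pools. Its arrays of 1 pool differed by up to 0.77, more than these differences.

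Among the eIF3 subunits, Eif3i had higher signals in the hippocampal formation in recovery and in deprived than in control pools, by 0.14 and 0.16, without overlap and without a call. Eif3b, the RNA-binding scaffold subunit, had 247.4 and 280.6 in recovery, against 205.7 and 247.3 in deprived hippocampal pools, a difference of 0.22 without overlap. Eif3k had 306 and 302 in deprived, against 343 and 333 in control neocortical pools, a difference of -0.15. A second, dimmer probe set of Eif3k went the other way without overlap, with 24.2 and 27.2 in deprived, against 20.3 and 23.3 in control neocortical pools. None of these was called, and Eif3a (-0.13, deprived minus control) and Eif3f (0.13, recovery minus deprived), also among the extremes of the neocortex, had pools that overlapped. Eif1a, which stabilises the scanning ribosome, was -0.23 in recovery against deprived hippocampal pools, with signals of 110.4 and 109 in recovery, against 129 and 128 in deprived pools. The other probe sets of Eif1a did not show this, and their pools overlapped. They had 93.8 and 115 in recovery against 94.7 and 107 in deprived pools, and 35.6 and 50.9 against 36.8 and 46.6. The last had 86.4 and 63.9 in recovery against 74.5 and 67.6 in deprived pools. In the neocortex Eif1a overlapped between states, at -0.10 for recovery minus deprived and 0.26 for deprived minus control. Eif2d, which can deliver transfer RNA without eIF2, had 91.1 and 89.0 in recovery, 84.1 and 78.1 in deprived and 78.5 and 81.9 in control neocortical pools, with recovery above the other states by 0.17 against control and 0.15 against deprived. Eif5a2, a hypusine-bearing factor, was 0.17 in recovery against deprived neocortical pools (339 and 358 in recovery, against 333 and 287 in deprived pools), and Eif2b1, the alpha subunit of eIF2B, was -0.13 (147 and 145 in recovery, against 154 and 167 in deprived pools). Neither pair overlapped, and neither gene was called. A second probe set of Eif5a2 did overlap, with log2 signals of 7.45 and 7.74 in recovery, against 7.54 and 7.64 in deprived neocortical pools. Eef1akmt1, named as a methyltransferase of eEF1A, was above neocortical control without overlap in recovery and in deprived pools, by 0.18 and 0.20. The remaining extremes overlapped between states, namely Eif4g3 (-0.26), Eif4ebp3 (-0.26) and Eif2b4 (0.16) for recovery minus deprived in the hippocampal formation, and Eef1d (-0.13) for deprived minus control and Eef1akmt2 (-0.32) for recovery minus deprived in the neocortex.

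The change between states was also set side by side in the 2 structures, by testing whether the hippocampal minus neocortical difference depended on state. Of the 55 genes 0 were called in any of the 3 such comparisons (0% of all probe sets each), and 1, Eef1akmt2, had an unadjusted p under 0.05, for recovery minus control (0.46, adjusted p = 1.0 by limma), where 1.30% of all probe sets had one.

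Eif3c, a core subunit of eIF3 that contacts eIF1 and eIF5 on the small subunit, has 2 probe sets, which differed. The brighter one had signals of 588 and 546 in recovery, 588 and 469 in deprived and 651 and 475 in control hippocampal pools and 517 and 471 in recovery, 514 and 482 in deprived and 531 and 544 in control neocortical pools. In the neocortex the difference of recovery from control was -0.12 (SE 0.16) without overlap, and in the hippocampal formation the states overlapped. The dimmer one had 154 and 141 in recovery, 124 and 111 in deprived and 139 and 115 in control hippocampal pools and 80.8 and 94.8 in recovery, 113 and 110.2 in deprived and 128 and 127 in control neocortical pools. Its neocortical states were ordered without overlap, recovery lowest and control highest, while in the hippocampal formation the recovery pools were the highest. Recovery minus control was -0.55 in the neocortex (SE 0.14, unadjusted p = 0.00255, adjusted p = 1.0, and 0.367 with the set as a block, by limma) and 0.22 in the hippocampal formation. The difference between the structures in that change was 0.76 (SE 0.19, unadjusted p = 0.00510, adjusted p = 1.0, and 0.450 with the block, by limma), with 0.82 in set 1 and 0.71 in set 2. The brighter probe set gave 0.15 for the same quantity, with -0.11 in set 1 and 0.41 in set 2. Recovery against deprived gave -0.35 in the neocortex and 0.32 in the hippocampal formation for the dimmer probe set, and -0.011 and 0.11 for the brighter. The dimmer probe set was already known from these data for its low signal in the recovery neocortex, so its values are a description. The 3' to 5' ratio of beta-actin was 2.33 and 2.39 in recovery, 2.47 and 2.44 in deprived and 2.42 and 2.52 in control hippocampal pools, against 3.18 and 2.83 in recovery, 3.01 and 2.35 in deprived and 2.69 and 2.61 in control neocortical pools. It was thus higher in recovery than in control neocortical pools, while the set 2 deprived pool of the neocortex had a ratio below both controls and an Eif3c signal below both as well. For Gapdh the same measure lay at 1.08 and 1.17 in recovery, against 1.08 and 1.12 in control neocortical pools, with both recovery values above the lower control and 1 above both. The part of RNA quality in the Eif3c values was not tested. Which transcripts of Eif3c each probe set measures was not tested.

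**Figure D4:**
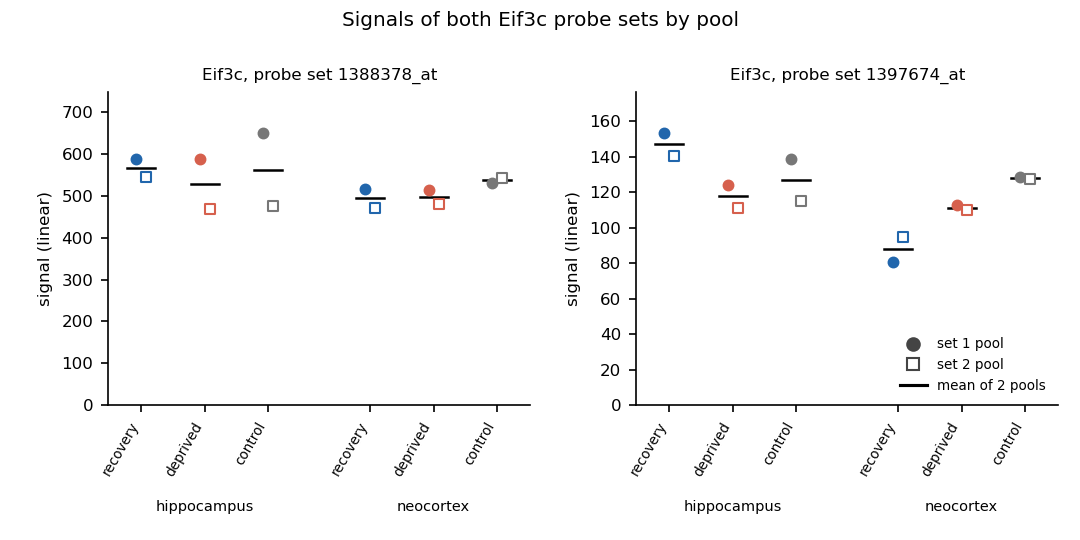
Linear signal of both Eif3c probe sets by pool (filled circles set 1, open squares set 2, bar the mean of 2 pools), with recovery, deprived and control from left to right in each structure. In the dimmer probe set (right) the 2 recovery pools of the neocortex lie at 80.8 and 94.8, below every other pool, while those of the hippocampal formation lie at 154 and 141.

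Much of the variation of the translation factors lay between the 2 sets of rats, which are present in every group. Over the 12 pools the set held a median of 47.7% of a gene's variance, structure 15.7% and state 14.2%, against 30.8%, 20.6% and 15.1% for all kept probe sets. The shares of set and state were taken within each structure. They thus include how set and state differ between the structures, and have more terms than the share of structure, so these are not like measures. Counted in that way, the set held the largest share in 34 of the 55 genes, structure in 14, state in 4 and the rest in 3. In 21 of 55 genes set 2 lay to one side of set 1 in all 6 pairs of pools, 12 higher and 9 lower, against 23.6% of all probe sets (12.6% higher and 10.9% lower). Among the higher, Eef1akmt2 was 0.56, Eif4ebp2 0.52 and Eef2k 0.44 above set 1 on average, and among the lower Eif2s1 was -0.34 and Eef1d -0.28. Eif4ebp2 showed this most in the hippocampal formation, where it had 107 and 209 in recovery, 105 and 202 in deprived and 99.7 and 174 in control pools. Each set 2 pool there was well above each set 1 pool, by 0.91 on average, while in the neocortex the difference was 0.14. Eif2a (0.78 in the hippocampal formation and 0.19 in the neocortex) and Eif4ebp3 (0.61 and -0.018) were alike in this, and Eif4a1 ran the other way (-0.17 and 0.40). Eif4ebp2, Eif2a, Eef1akmt2, Eif4ebp3 and Eif4a1 were the 5 genes with the largest SD over the 12 pools. Several marker sums differed between the sets without overlap. Oligodendrocyte markers summed to 6979 to 7953 in set 2 and 9231 to 11006 in set 1 of the hippocampal formation, and to 6429 to 7080 in set 2 and 8436 to 8599 in set 1 of the neocortex. Choroid plexus markers summed to 169.9 to 788 in set 2 and 1594 to 2210 in set 1 of the neocortex, and to 384 to 1305 in set 2 and 1212 to 4581 in set 1 of the hippocampal formation, where the sets overlapped. In the hippocampal formation, markers of hippocampal neurons summed to 1610 to 1876 in set 2 and 2008 to 2294 in set 1, and those of neocortical neurons to 1198 to 1570 in set 2 and 1137 to 1179 in set 1. The part of these cell types in the set differences of members was not tested. Median sizes of a log2 difference in members were 0.14 between the sets, 0.12 between the structures, 0.074 between states and 0.11 between 2 arrays of 1 pool, against 0.20, 0.21, 0.12 and 0.16 for all kept probe sets. Only the value between arrays uses single arrays throughout, since each set 1 pool is a mean of 2 arrays in the others.

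**Figure D5:**
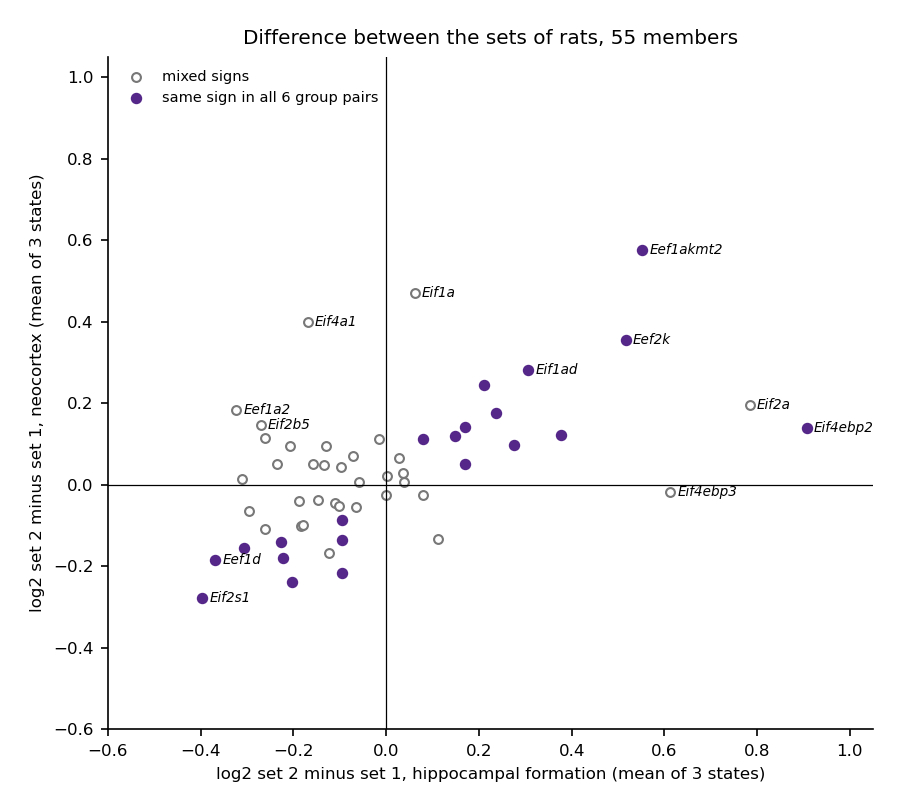
Log2 difference of set 2 minus set 1 for the 55 genes, hippocampal formation on the horizontal and neocortex on the vertical axis, each the mean of 3 states; filled points have the same sign in all 6 pairs of pools. Eif4ebp2 and Eif2a lie far to the right, at 0.91 and 0.78, and Eef1akmt2 is raised in both structures.

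The neighbouring parts of the pathway, taken from lists of pathway membership, gave 0 calls in every comparison of sleep states and every comparison of state between structures. The lowest unadjusted p among them within a structure was that of Ddit4, an inhibitor of mTORC1 induced by glucocorticoids and stress, -0.46 in the neocortex for recovery minus deprived (adjusted p = 1.0 by limma). Counts of calls between structures in these lists are read against the 9.40% of all probe sets called higher and the 10.5% called lower, and no list was tested against them. Between structures 3 of 18 mTORC1 pathway genes were called higher and 5 lower in the hippocampal formation, among them Ddit4l (1.28), a relative of Ddit4, Deptor (-0.63), which binds and inhibits mTOR, and Rps6ka3 (-0.56), a ribosomal S6 kinase. Of 13 targets of the integrated stress response 3 were called higher and 1 lower, including Cebpb (1.16), Asns (0.51, with 0.78 in set 1 and 0.24 in set 2) and Nupr1 (-1.04). Of 14 partners and regulators of the initiation factors Cyfip1, which binds eIF4E, was higher (0.37) and Fmr1, its RNA-binding partner, lower (-0.53, adjusted p = 0.0458 by limma). Fmr1 was -0.87 in set 1 and -0.18 in set 2, and its pools overlapped between structures. Of 8 mitochondrial translation factors 1, Mtrf1l, was lower (-0.29), and 0 of 4 eIF2 alpha kinases and 0 of 5 genes of termination and recycling were called.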

How the data were processed

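RNA of pooled right hippocampal formation and right neocortex was measured on Affymetrix rat arrays. The deposited values are intensities on a linear scale, made by the authors with MAS5 per the submitters' processing notes, which give no version here, with a trimmed mean near 100.03 on each array. Probe sets were named from the platform annotation, and the 88 member probe sets matched RefSeq gene IDs. The members and the gene lists were chosen with earlier results of these data known.

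Intensities were floored at 1 and put on the log2 scale, and the 2 arrays of each set 1 pool were averaged, which left 12 pools. Control probe sets and the 40% of probe sets with the lowest mean were left out, which kept 18625 of 31042. Differences were tested with limma 3.58.1 (lmFit, eBayes with a trend) in R 4.3.3 over all kept probe sets, and p-values were adjusted by Benjamini and Hochberg, with 0.05 as the threshold. Sleep states were compared over the 12 pools, and structures, and the dependence of their difference on state, over the 6 hippocampal minus neocortical differences of the same rats. The p-values rest on pools of 6 rats, and their precision is set by how few pools there are. Each group holds 1 pool of each set, so without the block the spread between pools includes the difference between the sets. Between states, 0.907% to 1.62% of all probe sets then had an unadjusted p under 0.05 by limma, against 4.56% to 7.32% with the block. The state tests without the block were thus the stricter ones. The replicate number names a set of rats in the study's design, so deviations from group means were compared between pools of a set: they correlated at 0.539 to 0.682 within a structure (6 pairs) and at 0.182 to 0.387 between structures (9 pairs). The genes named are the main factors of each step, the called genes, the 4 highest and the 4 lowest of each comparison of states, and the 5 with the largest SD. The procedure was tested on simulated data, and alternatives covered the floor, the filter, quantile normalization, the choice of probe set and array, left-out pools and the set as a block. Simulated pools varied independently, without a shared difference between the sets, so the simulation does not cover that feature of the data. Figures were drawn with matplotlib 3.10.9.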

Additional observations from a re-analysis of the deposited data

How the results depend on the processing

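Of the sleep state differences of named genes, 0 were called in 2644 recomputed values, and 174 had another sign than the value reported. Medians of the 55 genes that moved were, for deprived minus control in the neocortex, -0.00969 with quantile normalization, -0.00229 with the first technical array alone and 0.00125 with the mean of a gene's probe sets; for recovery minus control, -0.00216 in the neocortex with the first technical array alone and -0.0324 in the hippocampal formation without its set 2 pools; and for recovery minus deprived in the hippocampal formation 0.00171 with the first technical array alone and 0.00154 without its set 2 pools. The causes were not tested. Leaving out 1 pool at a time gave medians, for recovery minus control, recovery minus deprived and deprived minus control, of -0.0468 to 0.0380, -0.0363 to 0.0252 and -0.0677 to 0.0328 in the hippocampal formation and of -0.0178 to 0.0289, -0.0362 to 0.0337 and -0.0302 to 0.000587 in the neocortex, so the sign of each rests on single pools.

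Between structures, 5 genes were called as reported, 19 with the replicate block, 23 without the animal pools of set 2, 3 with no filter and 2 with the first technical array alone. The fit without set 2 used a single mean over the states in place of a mean for each state. Shares of all probe sets called were computed only for the reported fit and the block. The other counts, with those for left-out animal pools, thus cannot be read as a trait of the members. Without 1 animal pool the count was 1 (recovery, deprived or control of set 1 left out), 2 (deprived of set 2), 3 (recovery of set 2) or 6 (control of set 2), and the median lay between 0.0423 and 0.0864. Of 14 alternatives Eif4e3 was called in 14 (adjusted p from 0.000183 to 0.0326 by limma), Eef1d in 10 (up to 0.123), Eif1b in 7 (up to 0.138), Eif3i in 7 (up to 0.146) and Eif4a1 in 6 (1.10e-05 to 0.200). For the dimmer Eif3c probe set, recovery minus control in the neocortex lay between -0.662 and -0.432 over 20 alternatives, 0 of them called, and its difference between structures between 0.585 and 0.943 over 12. Without detection calls, how far dim probe sets such as that of Eef2k stood above background is unknown.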
